A study of Mus musculus with 26 samples.

Results

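Long noncoding RNAs are transcripts that act as RNA instead of being translated, and 7 of them were followed here in mouse motor neuron spheroids: Malat1, Neat1, Miat, Snhg11, Rmst, Rian and Mirg. They were chosen by gene symbol as abundant nuclear and neuronal long noncoding RNAs, and each matched 1 of the 56941 genes in the deposited tables. All 7 had counts, although Snhg11 carries a protein-coding label in the count table. RNA was sequenced from 26 libraries of spheroids made of HBG3 cells, which are mouse embryonic stem cells with a GFP reporter driven by the HB9 promoter (the motor neuron gene Mnx1), with a genotype given as heterozygous blastocysts. All groups shared this 1 line, expansion on a feeder layer, differentiation with retinoic acid and puromorphamine, CNTF and GDNF from day 5, and seeding on fibrin at about day 8. The 5 groups were a silicone array actuated magnetically at 4 Hz for 30 min daily (n = 4), the same kind of array left static (n = 4), medium labelled low intensity (n = 6), medium labelled high intensity (n = 6) and a biochemical control (n = 6). The labels call the tissue nervous and the cells nerve cells, and give no batch, date or culture that would tie libraries together, so the spread between replicates may be technical. The design text names conditioned medium of stimulated and unstimulated muscle under other sample names, so the 2 medium groups are called by their intensity only, and that both received conditioned medium while the control did not is an assumption.

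As background, Malat1 is one of the most abundant nuclear RNAs of mammalian cells and gathers in nuclear speckles, where splicing factors of the SR family are stored. Neat1 lies next to Malat1 in the genome and is the scaffold of paraspeckles, nuclear bodies built from the long Neat1 isoform and proteins such as Sfpq and Nono, and its level rises under many kinds of cell stress. Miat (Gomafu) is a neuronal nuclear RNA whose repeats bind the splicing factor Sf1, Rmst is a partner of Sox2 in neurogenesis, and Snhg11 is a neuronal host gene of small nucleolar RNAs. Rian (Meg8) and Mirg (Meg9) follow Meg3 (Gtl2) in the imprinted Dlk1-Dio3 region, where all of them are transcribed from the maternal chromosome and carry small nucleolar RNAs and microRNAs.

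The 3′ ends of Malat1 and of the long Neat1 isoform are shown first because these ends, which lack an ordinary poly(A) tail, set the pair apart from other transcripts. Both sequences come from GENCODE M21 (GRCm38, chromosome 19), run 5′ to 3′ on the transcript strand and cover bases 6582 to 6691 of a 6983-base Malat1 transcript and the last 110 bases of a 20771-base Neat1 transcript. Capitals mark the stretches of at least 9 bases that the 2 ends share, a pair of U-rich stretches and an A-rich tract known to fold into a triple helix.
Malat1: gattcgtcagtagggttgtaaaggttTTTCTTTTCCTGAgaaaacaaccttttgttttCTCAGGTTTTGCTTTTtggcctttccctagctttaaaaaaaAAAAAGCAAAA
Neat1: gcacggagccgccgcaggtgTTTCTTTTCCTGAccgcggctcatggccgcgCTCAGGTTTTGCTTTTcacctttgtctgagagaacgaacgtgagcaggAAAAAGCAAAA
On the transcript strand, TTTCTTTTCCTGA occurred in 35 of 141767 GENCODE transcripts (0.0247%), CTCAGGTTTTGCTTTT in 2 (0.00141%) and AAAAAGCAAAA in 618 (0.436%). All 3 were held together by 2 transcripts, 1 of Malat1 and 1 of Neat1, which are the pair that the stretches were taken from.

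Miat is shown by its 2 clusters of the repeat TACTAAC, in capitals, which resembles the branch point sequence that Sf1 recognises. They lie at bases 4931 to 5082 and 5579 to 5639 of a 9163-base transcript (GENCODE M21, GRCm38, chromosome 5).
Miat, first cluster: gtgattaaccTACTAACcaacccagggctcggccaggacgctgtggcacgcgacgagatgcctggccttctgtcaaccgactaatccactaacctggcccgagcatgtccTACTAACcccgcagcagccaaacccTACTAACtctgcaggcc
Miat, second cluster: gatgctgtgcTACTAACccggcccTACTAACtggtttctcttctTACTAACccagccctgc
The transcript holds 6 copies of TACTAAC on its own strand, and 3 of 18930 transcripts of long noncoding genes (0.0158%), from Miat and the gene model AC154442.1, hold at least as many. No transcript of the other 6 genes held more than 1 copy.

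The Mirg transcript spans 14 microRNA genes, and RefSeq (GRCm38.p6) gives 26 mature microRNAs within it on chromosome 12, with 25 different seeds. Below are the 2 that share a seed and miR-134-5p, known for its role at dendrites, with the seed (bases 2 to 8) in capitals.
mmu-miR-453: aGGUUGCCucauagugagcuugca
mmu-miR-496a-5p: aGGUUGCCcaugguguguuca
mmu-miR-134-5p: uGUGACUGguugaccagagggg
The libraries were made from fragmented total RNA and do not measure these small products: the 14 microRNA genes held 1 count in all libraries together. In the same way, the 2 small nucleolar RNAs within Snhg11 held 0 counts, and the 8 within Rian that are in the table held 20.

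Depth was very unequal. Totals ran from 1536 counts (low intensity replicate 6, in which Malat1 had 0 counts) to 13162635, and all array libraries but static replicate 3 were deeper than every medium and control library. In 21 libraries over 1000000 counts fell on protein-coding genes; these are called the deeper libraries and comprise 4 actuated, 3 static, 5 low intensity, 4 high intensity and 5 control libraries, with totals of 1551334 to 13162635. The 5 left over were replicates 4 and 5 of high intensity, replicate 6 of low intensity, static replicate 3 and control replicate 4, and in the last of these 75.7% of all counts came from nuclear rRNA. A level of 3 counts corresponded to 0.228 to 1.93 counts scaled to 1000000 per library (CPM) in the deeper libraries but to 12.3 CPM in high intensity replicate 4 and 1953 CPM in low intensity replicate 6. All 7 motor neuron markers checked, including Mnx1, Isl1 and Chat, had counts in each group. Isl2 and Lhx3 were near the level of 3 counts, with medians of 0.329 and 1.36 CPM over the deeper libraries and minima of 0. The highest median was that of Slc18a3, at 55.3 CPM. Differences were tested with the quasi-likelihood F-test of edgeR, with p-values adjusted by Benjamini-Hochberg over all genes fitted, once in all 26 libraries (14907 genes) and once in the deeper libraries (14730 genes). Mirg was too low to pass the low count filter in either, so 6 of the 7 members were tested.

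Levels between the members were compared in TPM, the deposited unit per transcript length. Malat1 stood far above the others, with a median of 5160 TPM over the deeper libraries, the 9th highest of all genes. Snhg11 followed with 56.0 TPM and Rian with 51.0 TPM, then Rmst with 19.7 TPM and Miat with 11.4 TPM. Neat1 had a median of 3.55 TPM and Mirg of 0.523 TPM. The ranges of Snhg11 (21.9 to 157 TPM) and Rian (14.6 to 157 TPM) overlapped, as did those of Rmst (4.52 to 35.1 TPM), Miat (2.41 to 49.6 TPM) and Neat1 (0.338 to 28.9 TPM). The length that links TPM to counts varied between libraries: relative to Malat1 it was between 2.32 and 18.8 for Neat1, so Neat1 levels in TPM also carry this length, and the gene counts do not separate its short and long forms. Within a gene, CPM scaled by TMM in the deeper libraries is used from here on, while marker sums and limits from 0 counts are CPM of the library total without TMM.

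**Figure D1:**
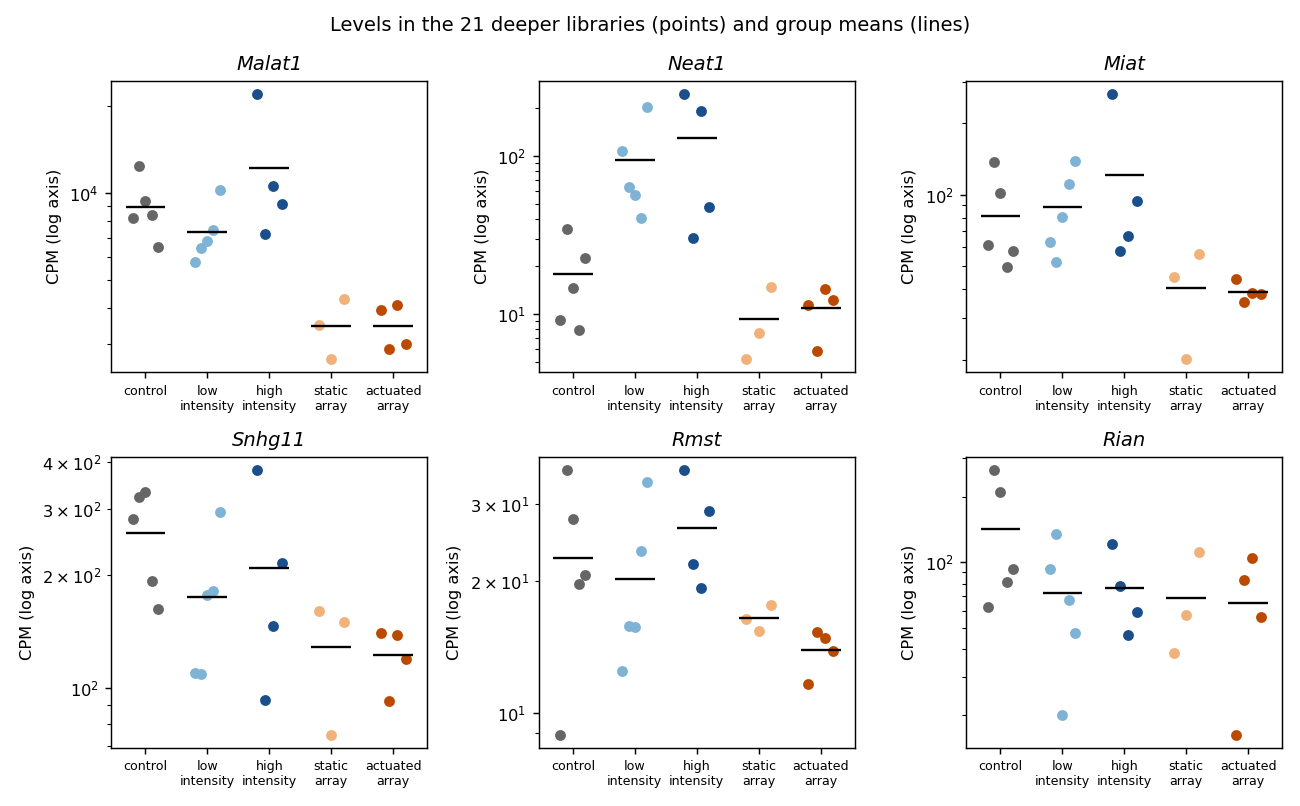
Level of each tested member in the 21 deeper libraries, in CPM on a log axis, by treatment group; points are libraries and lines are group means. All 5 low intensity libraries lie above the 5 controls for Neat1, and the 3 static and 4 actuated array libraries lie below all 14 medium and control libraries for Malat1.

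Neat1, the paraspeckle scaffold, was higher in both medium groups than in the control in the deeper libraries. Its CPM was 9.20, 34.7, 14.6, 7.95 and 22.6 in the 5 control libraries. It was 108, 63.7, 56.2, 40.5 and 203 in the low intensity libraries. It was 246, 30.4, 193 and 47.4 in the high intensity libraries. The low intensity libraries did not overlap with the controls, while the lowest high intensity library lay below the highest control. The means were 17.8 ± 11.1 CPM in the control (SD, n = 5), 94.3 ± 65.8 at low intensity (SD, n = 5) and 129 ± 107 at high intensity (SD, n = 4). In edgeR's log2 fold change, Neat1 rose by 2.85 at high intensity (7.20-fold, SE 0.54, adjusted p = 0.0357). The rise at low intensity was 2.40 (5.29-fold, SE 0.53, adjusted p = 0.0370 by edgeR). It was the 1 member called in each of these comparisons, against a background of 0.462% of genes called at high intensity and 0.597% at low intensity. Non-overlap between groups was likewise rare, at 3.56% of genes for high intensity and control, where no member showed it, and 2.25% for low intensity and control, where Neat1 alone did.

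With all 26 libraries the Neat1 differences kept their direction but not the call, with log2 fold changes by edgeR of 2.24 for high (SE 0.63, adjusted p = 0.187) and 2.004 for low intensity (SE 0.63, adjusted p = 0.391). No member was called in that fit, against 0.0402% of genes at high intensity and 0.0268% at low intensity. Of the added libraries, high intensity replicate 4 had 0 Neat1 counts, which at its depth allows up to 12.3 CPM, high intensity replicate 5 had 38 counts and control replicate 4 had 23. In the deeper libraries the high intensity call was lost in 7 of 21 refits that left out 1 library each (without actuated replicate 1, static replicates 1 and 2, control replicates 3 and 5, or high intensity replicates 1 and 3). The low intensity call was lost in 8 of 21 (without actuated replicates 1 and 4, low intensity replicates 1, 2 and 5, or control replicates 1, 3 and 5). The log2 fold change stayed between 2.32 and 3.22 at high and between 1.92 and 2.78 at low intensity in these refits. Without actuated replicate 1, 0% of genes were called at high and 0.279% at low intensity, and without static replicate 1, 0% at high intensity. With voom and sample quality weights neither call remained (limma adjusted p = 0.316 and 0.318), where 0% and 0.00679% of genes were called. Nor did either remain with the replicate number as a block (edgeR adjusted p = 0.0739 and 0.177), where 0.0136% and 0.0543% of genes were called.

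The count ratio of Neat1 to its neighbour Malat1 does not depend on scaling for library size. Per 100 Malat1 counts there were 0.113, 0.279, 0.156, 0.0950 and 0.348 Neat1 counts in the deeper controls. The low intensity libraries had 1.87, 0.984, 0.826, 0.543 and 1.98. The high intensity libraries had 1.12, 0.422, 1.83 and 0.518, and the array libraries lay between 0.149 and 0.411. Every deeper medium library of either intensity thus had a higher ratio than every deeper control or array library, although the nearest values, 0.422 and 0.411, were close. Across the shallower libraries the ratio reached 1.22 in static replicate 3 and 0.762 in control replicate 4, inside the range of the medium groups. It was 1.48 in high intensity replicate 5 and 0 in high intensity replicate 4, which had 6387 Malat1 counts, so with the shallower libraries the groups overlapped.

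Markers of other cells also differed between these groups, and their part in the Neat1 result was not tested. The summed level of Col1a1, Col1a2, Col3a1, Dcn and Lum was 260 to 706 CPM in the deeper controls, 207 to 2538 CPM at low and 798 to 2338 CPM at high intensity, with all 5 markers detected in each group. In the order of the Neat1 values above, these sums were 267, 2538, 207, 655 and 919 CPM at low intensity and 1866, 2338, 935 and 798 CPM at high intensity. Neural progenitor markers (Sox2, Nes, Pax6, Olig2, Mki67 and Vim, all 6 detected in each group, Vim the highest) summed to 827 to 1087 CPM in the controls, 1240 to 2981 CPM at low and 1306 to 2487 CPM at high intensity, without overlap with the controls. In the same order they were 2919, 2090.5, 1240, 1328.5 and 2981 CPM at low and 1545, 1382, 2487 and 1306 CPM at high intensity. At low intensity the 3 libraries with the highest progenitor sums were also the 3 highest in Neat1. At high intensity replicates 1 and 3 had the highest progenitor sums and also the highest Neat1 levels, though in opposite order. The deeper array libraries had progenitor sums of 1312 to 1597 CPM (actuated) and 1449 to 1547 CPM (static), also above the controls. Neat1 there was 5.82 to 14.3 CPM (actuated) and 5.20 to 14.9 CPM (static). The 6 muscle markers summed to 7.51 to 62.9 CPM in the controls, 6.62 to 133 CPM at low and 17.3 to 175 CPM at high intensity, with the highest median for Des (23.2 CPM). Myod1, Myog and Ckm had medians of 0 CPM, and Myod1 and Myog were at 0 in every deeper control. In these bulk samples, a change in the share of cells of a type and a change in RNA per cell cannot be told apart.

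**Figure D2:**
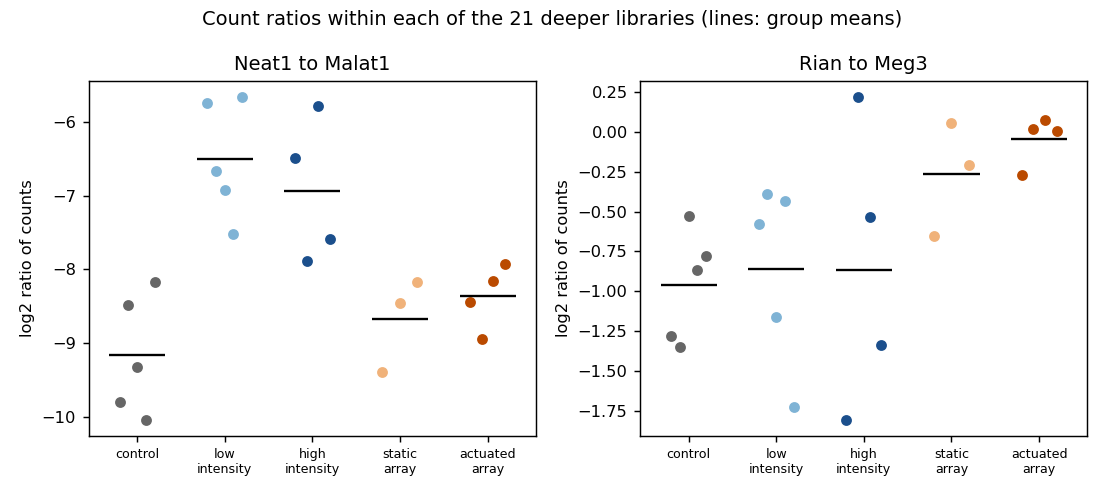
Log2 ratio of counts within each of the 21 deeper libraries, by treatment group, with group means as lines. For Neat1 to Malat1 all 9 low and high intensity libraries lie above the control and array libraries, and for Rian to Meg3 the actuated libraries (-0.27 to 0.08) lie above the controls (-1.35 to -0.53).

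The proteins of the 2 nuclear bodies differed less than Neat1. None of 10 paraspeckle proteins was called at high intensity, where 7 lay above 0 and the median log2 fold change was 0.05, or at low intensity, where 7 lay above 0 and the median was 0.14. Of 12 nuclear speckle proteins, 11 lay above 0 at either intensity, with a median of 0.28 at high and 0.20 at low intensity, while the median of all genes was 0.00 and -0.01. Srsf1, an SR protein that selects exons, rose by 0.51 on the log2 scale at high intensity (SE 0.11, adjusted p = 0.0435 by edgeR). Sf3b1, a subunit of the spliceosome's U2 particle, rose by 0.52 at low intensity (SE 0.11, adjusted p = 0.0328 by edgeR). Over all genes of the deeper libraries 0.462% were called at high and 0.597% at low intensity. None of these proteins was called in all 26 libraries, where 0.0402% and 0.0268% of genes were called.

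Malat1, the speckle RNA, was lower on the static array than in the control. The static libraries had 3482, 2668 and 4286 CPM and the actuated ones 3934, 2883, 4081 and 3004 CPM. The controls had 8176, 12420, 9391, 8373 and 6489 CPM, and no static or actuated library reached the lowest of them. In TPM the actuated array overlapped with the control, since actuated replicate 1 had 4207 TPM and control replicates 1 and 6 had 3405 and 3656 TPM. The static libraries stayed below the controls in TPM, with at most 3324 TPM. Malat1 fell by 1.37 on the log2 scale from control to static array (SE 0.28, edgeR adjusted p = 0.0167), from a mean of 8970 ± 2192 CPM (SD, n = 5) to 3479 ± 809 CPM (SD, n = 3). It was the 1 member called, against 0.713% of genes in the deeper libraries. Malat1 and Snhg11 did not overlap between these groups, where 8.14% of genes did not. In all 26 libraries no member was called, against 0.0134% of genes, and Malat1 stood at -1.11 (SE 0.59, edgeR adjusted p = 1.00).

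This comparison crosses the 2 arms of the study. The deeper array libraries held 7269276 to 13162635 counts and the controls 2273487 to 3771637, and mitochondrial genes took 6.77 to 11.4% of counts on the arrays and 11.7 to 17.5% in the controls, so the array and the way each arm was prepared cannot be told apart. Astrocyte markers (Gfap, Aqp4, Slc1a3, S100b and Aldh1l1, all 5 detected in each group) summed to 2831 to 3633 CPM on the static array, 2674 to 3848 CPM on the actuated array and 1654 to 2189 CPM in the controls. The neural progenitor markers summed to 1449 to 1547 CPM on the static array, above the 827 to 1087 CPM of the controls, and oligodendrocyte lineage markers summed to 220 to 519 CPM against 63.8 to 143 CPM. Motor neuron markers went the other way, with 77.4 to 91.0 CPM on the static array and 101 to 153 CPM in the controls. None of these 4 lists overlapped between static array and control. On the actuated array the motor neuron markers summed to 95.1 to 138 CPM and overlapped with the controls. The 7 general neuron markers, such as Tubb3 and Map2, overlapped between static array (3258 to 3840.5 CPM) and control (2949 to 3513.5 CPM). The part of all these markers in the results for Malat1 and the other members was not tested. With all deeper libraries thinned to 1551334 counts Malat1 had a log2 fold change of -1.39, and with mitochondrial and rRNA genes removed one of -1.34. On the TPM scale it was smaller and no longer called, at -0.88 (limma adjusted p = 0.111). The call was also lost without static replicate 1, 2 or 4, which leaves 2 static libraries.

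In the edgeR fit of the deeper libraries, the 6 tested members all lay below 0 on the static array against the control. They lay between -1.37 and -0.45, with a median log2 fold change of -1.02 against 0.00 over all genes. On the TPM scale of the same libraries this did not hold for Miat and Rmst. Miat had a mean of 8.92 TPM on the static array and 8.39 TPM in the control, and Rmst 17.2 and 17.1 TPM. The other tested members had lower means on the static array in TPM as well. Snhg11 stood at -1.01 (SE 0.36, edgeR adjusted p = 0.206) and Miat at -1.02 (SE 0.43, edgeR adjusted p = 0.302), and neither passed. Of 13 other fitted long noncoding RNAs of nuclei or neurons, 12 lay below 0, with a median of -0.27. Among them Kcnq1ot1, a long nuclear RNA that silences imprinted neighbours, fell by 1.74 (SE 0.27, edgeR adjusted p = 0.00276), where 0.713% of genes were called. In the fit of all 26 libraries none of 14 fitted RNAs of this list was called, against 0.0134% of genes. There 6 of them lay above 0, the lowest stood at -0.57, and the median was -0.16 against 0.09 over all genes. Genes of the long noncoding class took 1.17 to 1.33% of counts in the deeper array libraries and 1.85 to 2.21% in the deeper controls. These shares include Malat1, which alone took 0.272 to 0.450% on the arrays and 0.625 to 1.05% in the controls. They are therefore not independent of the Malat1 result.

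At high against low intensity no member was called, in either set of libraries, where 0% of genes were called (434 of all genes had an unadjusted edgeR p under 0.05 with 26 libraries and 1131 in the deeper ones). All 6 tested members lay above 0 there, between 0.08 and 0.73, against a median of 0.01 over all genes. Malat1 was the highest of them at 0.73 (SE 0.24, edgeR adjusted p = 0.469). Its mean of 12231 ± 6648 CPM at high intensity (SD, n = 4) rested in large part on replicate 1 with 21982 CPM, since the others had 7201, 10592 and 9148 CPM and overlapped with the low intensity libraries (5784 to 10281 CPM). Replicate 1 of high intensity was also the highest of all 21 deeper libraries for Neat1 (246 CPM), Miat (266 CPM), Snhg11 (381 CPM) and Rmst (35.8 CPM). For Rian it was the highest of its group (122 CPM). The shared sign of the 6 members is therefore not independent of this 1 library. No member separated these groups, where 2.63% of genes did.

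**Figure D3:**
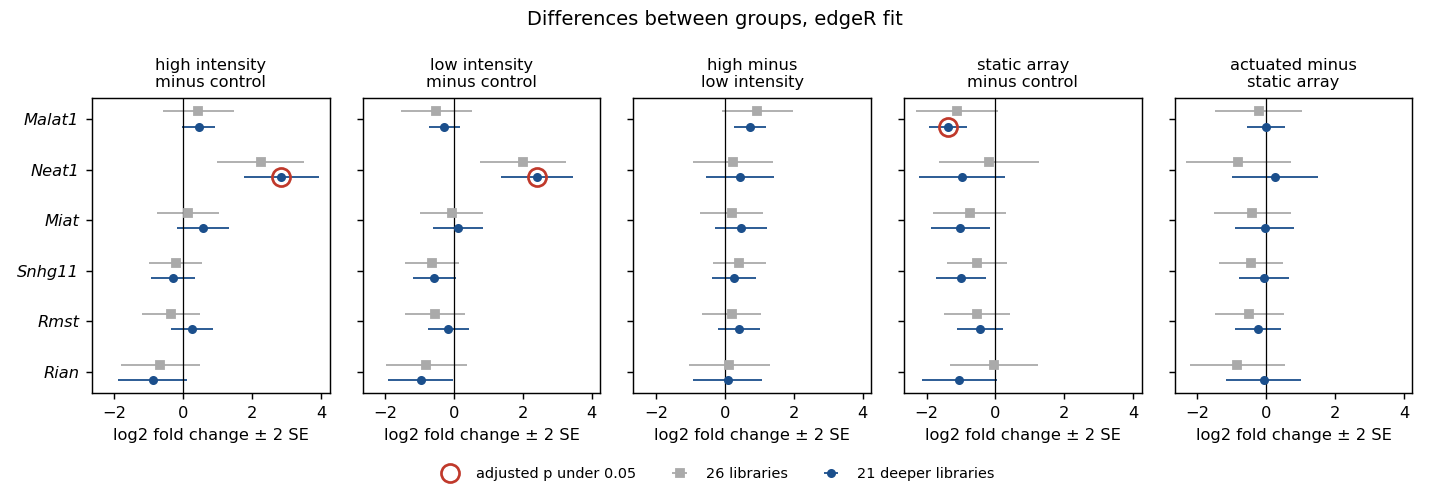
Log2 fold change with 2 SE on either side for the 6 tested members in 5 comparisons; grey squares are fits of all 26 libraries, blue points fits of the 21 deeper libraries, and red rings mark an adjusted p under 0.05. Rings stand on Neat1 at high (2.85) and low intensity (2.40) and on Malat1 on the static array (-1.37), and for actuation the members lie between -0.24 and 0.25 in the deeper libraries and between -0.84 and -0.22 in all 26, without a ring.

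Miat, the Sf1-binding neuronal RNA, had 61.5, 138, 101, 49.6 and 57.7 CPM in the controls. The high intensity libraries had 266, 57.6, 66.6 and 93.7 CPM, and the static ones 44.7, 20.2 and 56.2 CPM. Its groups overlapped in every comparison. At high intensity it stood at 0.58 (SE 0.38, edgeR adjusted p = 0.485), and for low intensity the value was 0.12 (SE 0.36, adjusted p = 0.923). In the 4 actuated libraries it varied little, from 35.2 to 44.1 CPM.

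Snhg11, the small nucleolar RNA host, had its highest group mean in the control, with 283, 324, 333, 193 and 162 CPM. The static libraries had 160, 75.2 and 150 CPM, all below the controls, though the nearest values, 160 and 162, were close. At low intensity the edgeR value was -0.57 (SE 0.31, adjusted p = 0.388), at high intensity -0.30 (SE 0.32, adjusted p = 0.713), and both groups overlapped with the control. Of 12 fitted snoRNA hosts on a list of 14 others, such as Gas5 and Snhg1, none was called in any of the 6 comparisons. This held in either set of libraries, where at most 0.713% of genes were called.

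Rmst, the Sox2 partner, was the member closest to constant between groups in the deeper libraries. Its group means there ran from 13.9 ± 1.63 CPM on the actuated array (SD, n = 4) to 26.5 ± 7.46 CPM at high intensity (SD, n = 4). The single libraries ran from 8.91 to 35.8 CPM. With all 26 libraries its means ran from 15.7 to 35.2 CPM, relatively wider than those of Rian (70.9 to 137 CPM) and Snhg11 (138 to 275 CPM). Its log2 fold changes in the deeper libraries were between -0.45 and 0.41, apart from the difference between the 2 effects described last, and none passed. Of 5 protein partners of Miat and Rmst (Qk, Sf1, Celf3, Sox2 and Hnrnpa2b1) none was called in any comparison, where at most 0.713% of genes were called.

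Rian, from the imprinted region, varied widely between replicates, with SDs of 32.9 to 89.5 CPM within groups whose means were 65.2 to 142 CPM. The controls had 62.4, 265, 210, 80.9 and 93.3 CPM and the actuated libraries 16.3, 83.2, 105 and 56.3 CPM. The low intensity libraries had 93.2, 135, 20.1, 67.0 and 47.3 CPM. Against the control, edgeR gave -0.89 for high intensity (SE 0.50, adjusted p = 0.401), -0.97 for low intensity (SE 0.47, adjusted p = 0.329) and -1.05 for the static array (SE 0.54, adjusted p = 0.436). Meg3, the first transcript of the region, lay lower in the same 3 comparisons (-0.68, -1.23 and -1.83) and did not pass either, with an edgeR adjusted p of 0.177 on the static array. These 3 comparisons share the control libraries. Dlk1, Rtl1, Dio3 and Begain, the protein-coding genes of the region, were not called in any comparison, where at most 0.713% of genes were called.

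The count ratio of Rian to Meg3 is given as a description, without a test. Per 100 Meg3 counts there were 41.1, 39.3, 69.3, 54.9 and 58.3 Rian counts in the deeper controls. The actuated libraries had 82.8, 101, 106 and 100, and the static ones 63.6, 104 and 86.8. The actuated libraries therefore lay above the controls, the lowest static library lay among them, the low intensity libraries ran from 30.2 to 76.3 and the high intensity libraries from 28.6 to 116, so the arms overlapped. The ratio is of counts, not of molecules, since the genes differ in length.

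Mirg, the microRNA host at the end of the region, was barely detected. It had 0 to 15 counts per library and 106 counts in the 21 deeper libraries. Its mean was 0.828 ± 0.433 CPM on the actuated array (SD, n = 4) and 1.78 ± 2.40 CPM in the control (SD, n = 5), where replicate 3 had 15 counts and replicate 1 had 0, which allows up to 0.795 CPM. No difference between groups was detectable at this depth. Fitted without the low count filter, its log2 fold changes in the deeper libraries lay between -1.37 and 0.64, with SE of 1.15 or more.

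Actuation of the array was not followed by a called change in any member, where 0% of genes were called in either set of libraries (575 had an unadjusted edgeR p under 0.05 with 26 libraries and 56 in the deeper ones). With all 26 libraries the 6 tested members lay below 0, with a median log2 fold change of -0.47 against -0.02 over all genes. The lowest were Rian at -0.84, with 2 SE on either side reaching from -2.23 to 0.55, and Neat1 at -0.81, from -2.34 to 0.71, and both intervals included 0. This fit includes static replicate 3. In the deeper libraries the difference was 0.00 for Malat1, with 2 SE on either side reaching from -0.55 to 0.55, and -0.05 for Miat, from -0.90 to 0.81. It was -0.06 for Snhg11, from -0.79 to 0.66, and 0.25 for Neat1, from -0.99 to 1.49, so that of Neat1 changed sign between the sets of libraries. For Rian it was -0.07, from -1.16 to 1.02. The interval of Malat1 was the narrowest of these and that of Neat1 the widest. Rmst was the 1 member whose groups did not overlap, with 11.6, 15.3, 14.8 and 13.8 CPM on the actuated and 16.4, 15.4 and 17.6 CPM on the static array, where 4.33% of genes did not, and it stood at -0.24 (SE 0.34, edgeR adjusted p = 1.00).

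The actuation effect was set against the high intensity effect in a single contrast, and 0% of genes were called in either set of libraries (980 had an unadjusted edgeR p under 0.05 with 26 libraries and 985 in the deeper ones). Neat1 differed most among the members, with edgeR values of -2.59 in the deeper libraries (SE 0.82, adjusted p = 0.645) and -3.06 in all 26 (SE 0.99, adjusted p = 0.237), so a difference in its response between the 2 kinds of stimulation did not pass the test.

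The members varied together to different degrees across the 21 deeper libraries, given here as a description, since all libraries share differences in depth, composition and arm. Of 15 pairs, 8 had a Pearson r of log2 CPM above 0.5, and so did 5 within the 7 array libraries and 5 within the 14 medium and control libraries. Malat1 and Miat were closest, with r = 0.89 over 21 libraries, 0.80 on the arrays and 0.82 in the other arm. Miat and Snhg11 had r = 0.83, 0.89 and 0.74 over the same sets. Neat1 and Malat1, neighbours in the genome, had r = 0.70 over all 21 but 0.39 within the medium and control libraries. Neat1 and Snhg11 had r = 0.32 over all and -0.04 within that arm. Rian passed 0.5 with no other member in these sets except Rmst on the arrays (r = 0.73), and had its closest relation with Meg3, at r = 0.85, 0.96 and 0.84.

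Among 7603 other genes with a mean of at least 20 CPM, those with patterns most like Neat1 over the 21 libraries included Itsn2 (r = 0.89), an endocytic scaffold, and Iqgap1 (0.87), a cytoskeletal scaffold. Within the 7 array libraries Itsn2 and Iqgap1 had 0.48 and 0.25 with Neat1. Malat1 was most like Spaca6 (0.91), Mir100hg (0.91) and Mdn1 (0.91), though within the 7 array libraries these fell to 0.42, -0.28 and -0.28. Miat was most like Abcc5 (0.88), Gm3764 (0.87) and Firre (0.87), another nuclear long noncoding RNA. Snhg11 was most like Pfkp (0.89), Firre (0.88) and Gm3764 (0.84), so Firre and Gm3764 stood on both lists. On the arrays Firre had 0.94 with Miat and 0.96 with Snhg11, and Gm3764 had 0.39 and 0.45. In the medium and control libraries Firre had 0.77 and 0.82, and Gm3764 had 0.84 with both. Rmst was most like Ttc5 (0.82), Bcl2l1 (0.79) and Srek1 (0.78), but on the arrays these had 0.39, 0.20 and -0.64. In the medium and control libraries these had 0.83, 0.83 and 0.76. Rian was most like Meg3 (0.85), Nxn (0.81) and Timmdc1 (0.75), which on the arrays had 0.96, 0.80 and 0.91.

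**Figure D4:**
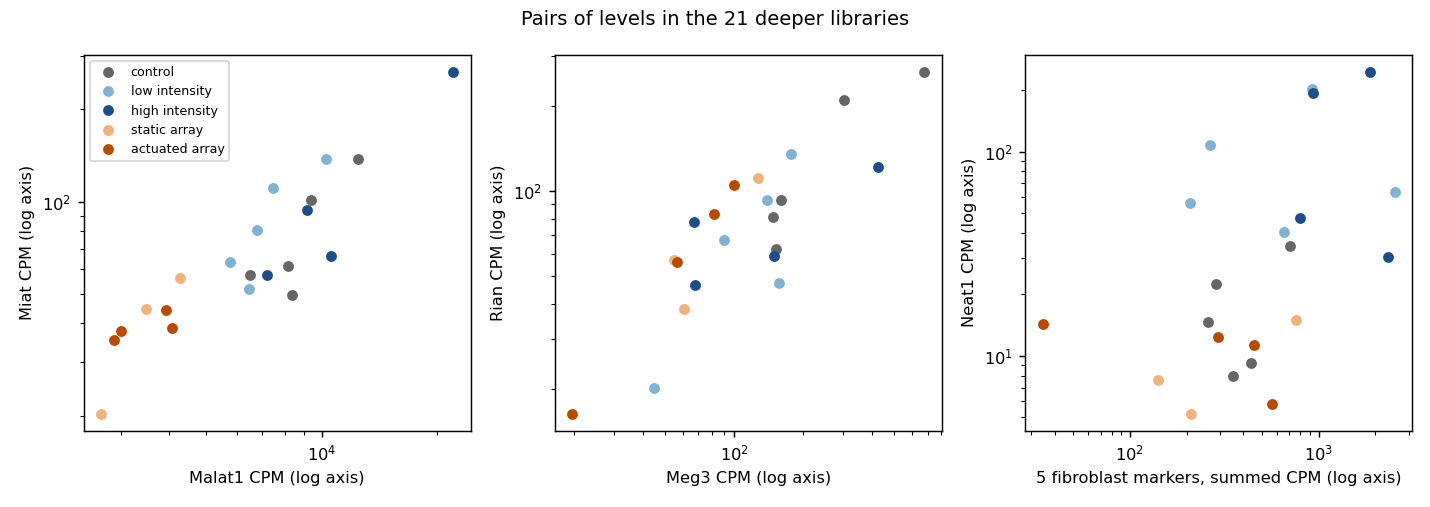
Levels of 2 quantities in each of the 21 deeper libraries, in CPM on log axes, coloured by treatment group: Miat against Malat1, Rian against Meg3, and Neat1 against the summed level of 5 fibroblast markers. Miat and Malat1 rise together (r = 0.89), as do Rian and Meg3 (r = 0.85), while Neat1 spans 30.4 to 246 CPM at high intensity over marker sums of 798 to 2338 CPM.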

How the data were processed

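The members and gene lists were chosen with earlier results of these data known. The authors deposited a table of expected counts, which are estimated counts written as whole numbers and not scaled for depth, and a table of TPM values summing to 1000000 per library, both by gene for 26 libraries. BWA 0.7.12-r1039, bedtools 2.25.0, STAR and Salmon and the builds mm10, hg19 and GRCm39 are named without roles, per the submitters' processing notes; whether counting used the strand is not given in the sources used here. Counts of overlapping genes are therefore uncertain. Per the labels' protocols, libraries were made from 4 ng of total RNA (full volume for the 8 samples of lowest concentration) with a low-input kit that cleaves rRNA fragments, and sequenced in a paired configuration of 50 bases per read. Molecular identifiers are not mentioned, and limits from counts cover counting error only.

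Rounded counts were fitted with edgeR 4.0.16 (R 4.3.3), 1 coefficient per group, filterByExpr, TMM and a threshold of 0.05. The fit of all 26 libraries was the main one and that of the 21 deeper libraries an alternative, and the report gives both. Scaling, filters, DESeq2 1.42.0, limma 3.58.1 on voom values or log2(TPM + 1 or 0.1), the replicate block, thinning and left-out libraries were tried; those for the deeper libraries, apart from the block and left-out libraries, were added after seeing the data. The code was tested on simulated data. All members are named; of other lists, genes past the threshold and Meg3; and for each member the 3 most like genes, of which 1 for Neat1 is not reported here. In 57 pairs of libraries within groups, a chi-square per degree of freedom of at least 4.74 left no pair that differed by sampling noise alone. Gene coordinates in the authors' build were not used.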

Additional observations from a re-analysis of the deposited data

How the results depend on the processing

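No log2 fold change of a member reversed a call under the alternatives run. With all 26 libraries no members were called in any comparison; without the low count filter 1 was called at high intensity, 1 at low intensity and 1 in the difference between the actuation and high intensity effects (0.543%, 0.378% and 7.88% of all genes), with only the groups compared 1 at low intensity, and with the deeper libraries 1 each at high intensity, at low intensity and on the static array, the last also with the replicate block. Leaving out each library in turn gave 0 to 0 members there. In the deeper libraries, where 1 member was called in each of these 3 comparisons, leaving out each library gave 0 to 1. Without the low count filter 4 members were called at high intensity, 3 at low intensity, 1 at high against low intensity, 5 on the static array and 1 in the difference of effects (1.88%, 1.77%, 0.338%, 1.23% and 0.66% of all genes). With limma voom and quality weights 0 were called at high and at low intensity (0% and 0.00679% of all genes). On log2(TPM + 1) 2 were called at high intensity (15.8% of all genes) and 0 on the static array (7.41%). On log2(TPM + 0.1) 0 were called on the static array (7.77%). The cause was not tested.

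Few same-numbered libraries varied together: 4 of 22 same-numbered pairs correlated above 0.1 (2 of 14 in the deeper libraries). Both of those deeper pairs were of an actuated and a static library, with r = 0.144 for replicate 1 and 0.182 for replicate 4. Replicate 2 of the arrays had r = -0.116. Pairing by replicate number was therefore not excluded. With the replicate block in the deeper libraries 0 members were called at high and at low intensity, against 0.0136% and 0.0543% of genes. Neat1 then rose less, by 2.68 (adjusted p = 0.0739 by edgeR) and 2.003 (adjusted p = 0.177 by edgeR). Malat1 on the static array kept its call, where 0.244% of genes were called. The lowest group mean fell on an array for 6 of 7 members in all libraries, 7 in the deeper libraries 4 on the TPM scale of all libraries and 6 on that of the deeper libraries, the last added after seeing the data. Depth limited what could be detected for Mirg and in the shallower libraries.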
